A study of Homo sapiens with 8 samples.

Results

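The S100A genes described here are the 8 members of the family on the long arm of chromosome 1 that were listed for comparison with S100A4: S100A2, S100A3, S100A4, S100A6, S100A10, S100A11, S100A13 and S100A16. They make up 8 of the 13546 genes measured. The set was chosen by a measured value, the higher count of S100A4 in CDK4KO than in CDK4WT tumours, and by position near it, and the question was whether its neighbours in the cluster shared that difference. The genotype difference of the members was thus used to select them and is given as a description, which no test supports.

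RNA was sequenced from 8 tumours that grew in nude mice injected with MDA-MB-231 cells, a human triple-negative breast cancer line of mesenchymal character. The CDK4WT group (4 libraries) came from cells with intact CDK4, and the CDK4KO group (4 libraries) from CDK4 knockout cells of the same line. CDK4 is the cyclin-dependent kinase that, with D-type cyclins, phosphorylates the retinoblastoma protein in G1. Nude mice lack mature T cells but keep macrophages, fibroblasts and vessels, and mouse RNA from these cells can be among the reads. How CDK4 was disrupted, whether the knockout cells were 1 clone, the site of injection, and the age and sex of the mice are not stated in the labels. The labels also do not say that each library is a separate mouse, so p-values measure the spread between these libraries.

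S100 proteins are small calcium sensors with a pair of EF-hand calcium-binding loops that act as dimers. On binding calcium most of them expose a hydrophobic face that docks to target proteins, among them annexins and cytoskeletal proteins, and several are also secreted and act on receptors such as AGER and TLR4. In breast cancer S100A4 is best known for its link to cell motility and metastasis.

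All 8 genes lie on the minus strand of chromosome 1 in the hg38 build, in the GENCODE 29 annotation. S100A4 (ENSG00000196154) spans chr1:153543613-153550136. S100A3 lies inside that span, at chr1:153547329-153549372, but the annotated exons of the pair share 0 bases. S100A6 lies at chr1:153534599-153536244, S100A2 at chr1:153561108-153567890, S100A16 at chr1:153606886-153613145 and S100A13 at chr1:153618787-153631360. S100A10 (chr1:151982915-151994390) and S100A11 (chr1:152032506-152047907) form a separate pair more than a megabase away. The exons of S100A13 overlap those of AL162258.1 on the same strand over 536 bases, 24.2% of its exon length, and those of S100A1 on the other strand over 235 bases, so its count is uncertain. S100A11 has 2 annotated pseudogenes, with which reads may be shared.

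The stretches below come from the windows that RefSeq gives around each start (GRCh38.p14, 250 bases before to 50 after, minus strand), and they are shown because they hold sequence features that some members have and others lack. Each is read 5′ to 3′ on the gene's strand, and capitals mark the match to TATAAA in S100A4 and S100A13, to TGANTCA in S100A2 and S100A3, and to GGGCGG in S100A6.
S100A4 (chr1:153545820-153545849): gcctggctggggTATAAAtaggtcagacct
S100A13 (chr1:153627517-153627546): ttccccgctgctTATAAAcctcagccctga
S100A2 (chr1:153565878-153565907): ggagtgggctgTGACTCAcaggcatgtcat
S100A3 (chr1:153549465-153549494): ggaatcaggagTGAGTCActgggctagcat
S100A6 (chr1:153536056-153536085): gcgcGGGCGGgacttGGGCGGGCGGggtgg

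Letters were searched on both strands in the 12 windows of the 8 members and in all 35114 windows. TATAAA, the core of the TATA box, occurred in 2 members, in 2 of the 12 windows, S100A4 (match starting at -31 from the start) and S100A13 (at -29 in 1 of its 3 windows). It occurred in 11.5% of all windows. TGANTCA, the site of AP-1 factors, also occurred in 2 members and 2 windows, S100A2 (-52) and S100A3 (-225), against 7.71% of all windows. GGGCGG, the GC box, occurred in 6 members, in 6 of the 12 windows, and in 45.0% of all windows. The S100A6 window held 3 such matches, the last 2 of which overlap. CCAAT occurred in 3 members (34.6% of all windows) and ACGTG, the core of the hypoxia response element, in S100A10 and S100A16 (21.4% of all windows). The ratio of observed to expected CpG dinucleotides had a median of 0.579 over all windows. It lay below that in S100A4 (0.293), S100A3 (0.212) and both windows of S100A2 (0.15 and 0.189) and of S100A16 (0.338 and 0.118). It lay above it in S100A6 (0.866), S100A10 (0.840) and S100A11 (0.781). S100A13 had windows on both sides, at 0.375, 0.429 and 0.848. No match was tested against expression.

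Total counts were 27840883 to 33617977 per library, and mitochondrial transcripts took 4.21 to 4.77% of them. Levels are counts-per-million values (CPM) after TMM scaling. CDK4 mRNA itself was 115, 107, 116 and 112 CPM in CDK4WT replicates 1 to 4 and 111, 119, 125 and 134 CPM in CDK4KO replicates 1 to 4. The groups overlap, so the level of this transcript does not separate the genotypes. All 6 markers listed for MDA-MB-231 cells were measured (VIM was at 7807 CPM or more in each CDK4KO library). Of 6 epithelial and hormone receptor genes listed as absent from the line, ERBB3 and EPCAM were at 7.25 to 11.1 CPM. The other 4 were not among the genes measured. CDK4KO replicates 1 and 4 stood apart from the rest, with library quality weights of 0.382 and 0.424 where the other 6 libraries had 0.647 to 3.0. For some genes the genotype difference is also given with 1 or both of them left out. For the other genes such values are not given.

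S100A4 stood higher in CDK4KO tumours. Its level was 258, 284, 261 and 243 CPM in CDK4WT replicates 1 to 4, a mean of 262 ± 17.0 (SD, n = 4). In CDK4KO replicates 1 to 4 it was 393, 320, 306 and 381 CPM, a mean of 350 ± 43.6 (SD, n = 4). Each CDK4KO library lay above each CDK4WT library, and replicates 1 and 4 were the highest of the 4. The difference was 0.42 ± 0.09 (SE) on the log2 scale, CDK4KO minus CDK4WT, a ratio of 1.34. Leaving out any 1 library gave 0.36 to 0.48, and leaving out CDK4KO replicates 1 and 4 together gave 0.26, with the remaining CDK4KO libraries still above all of CDK4WT. In such bulk samples, more cells that express a gene and more RNA per cell cannot be told apart. S100A4 binds the heavy chain of non-muscle myosin IIA and loosens its filaments.

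**Figure D1:**
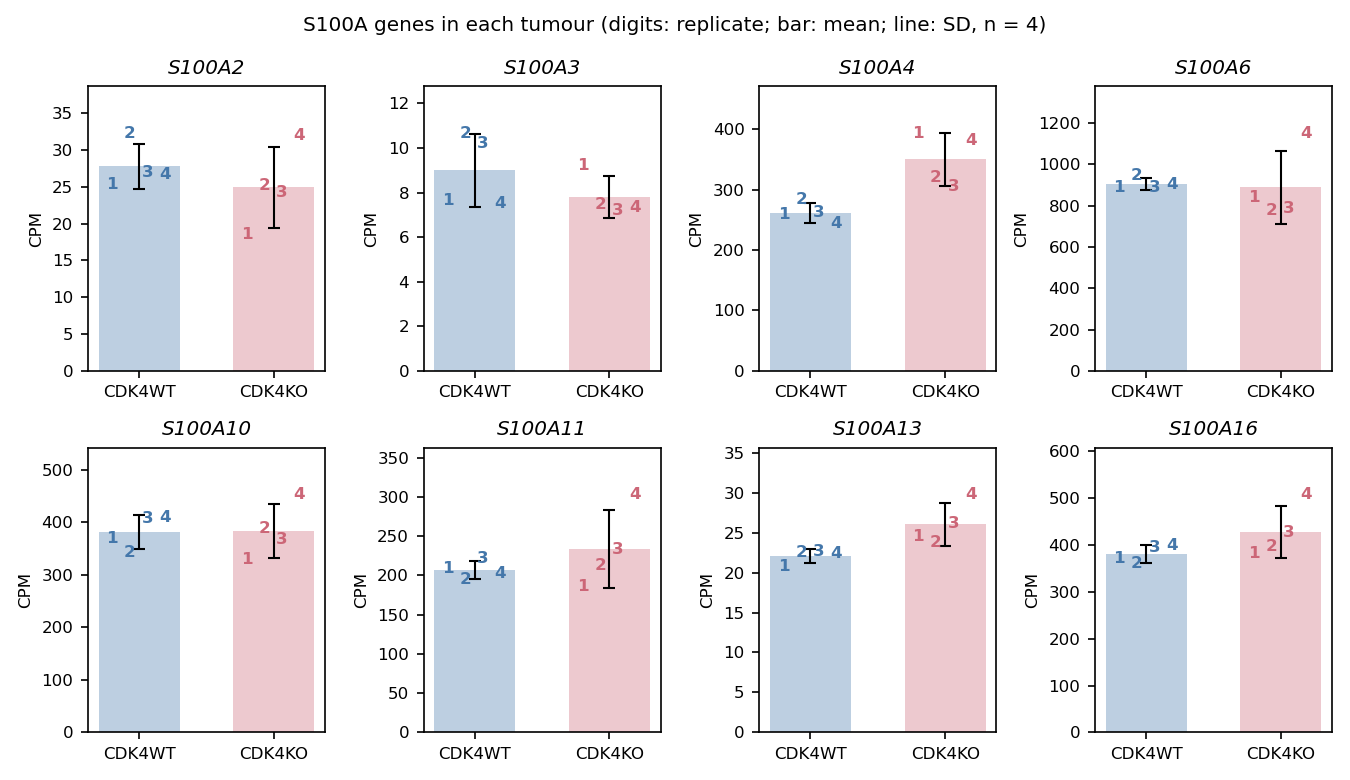
Level of each of the 8 S100A genes in CPM (TMM-scaled, linear axis from 0) in CDK4WT and CDK4KO tumours. Digits are the replicates, bars the means and lines the SD (n = 4). S100A4 and S100A13 are the genes whose genotypes do not overlap, and CDK4KO replicate 4 is the highest of the 8 libraries for S100A6, S100A10, S100A11, S100A13 and S100A16.

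S100A3 and S100A6, the measured members nearest to S100A4, did not stand higher. S100A3, a zinc-binding protein known from the hair cuticle, was the lowest of the members: 7.65, 10.7, 10.2 and 7.52 CPM in CDK4WT replicates 1 to 4 and 9.23, 7.46, 7.20 and 7.33 CPM in CDK4KO replicates 1 to 4. Its log2 difference was -0.21 ± 0.14 (SE), with overlapping groups. S100A6, or calcyclin, which binds CACYBP and annexins, was 886, 947, 888 and 901 CPM in CDK4WT and 839, 777, 787 and 1148 CPM in CDK4KO. CDK4KO replicates 1 to 3 lay below all CDK4WT libraries and replicate 4 above all of them, so the means (905 ± 28.5 and 888 ± 176, SD, n = 4) nearly coincide. Its log2 difference was -0.03 ± 0.12 (SE), and it was -0.18 without CDK4KO replicate 4, -0.21 without CDK4KO replicates 1 and 4, and slightly positive (at most 0.03) without CDK4KO replicate 2 or 3.

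S100A2, on the other side of S100A3, was also not higher. This member, known for its loss in breast carcinoma, was 25.3, 32.2, 26.9 and 26.7 CPM in CDK4WT and 18.5, 25.1, 24.2 and 31.9 CPM in CDK4KO. CDK4KO replicate 1 was the lowest of the 8 libraries and replicate 4 lay just under the highest CDK4WT library. The log2 difference of S100A2 was -0.16 ± 0.14 (SE), with -0.30 when CDK4KO replicate 4 was left out and -0.04 when CDK4KO replicate 1 was.

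S100A13 was the other member whose genotypes did not overlap. It takes part in the export of FGF1, a growth factor that leaves cells without a signal peptide. Its level was 20.7, 22.6, 22.6 and 22.4 CPM in CDK4WT replicates 1 to 4 and 24.5, 23.7, 26.1 and 29.7 CPM in CDK4KO replicates 1 to 4. All CDK4KO libraries lay above all CDK4WT libraries, by about 1 CPM at the closest. The log2 difference was 0.24 ± 0.08 (SE), a ratio of 1.18, and 0.18 without CDK4KO replicates 1 and 4. Its count carries the uncertainty of the shared exons named above.

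S100A16, a broadly expressed member, was 371, 360, 395 and 398 CPM in CDK4WT and 383, 396, 427 and 507 CPM in CDK4KO. The groups overlapped and CDK4KO replicate 4 was by far the highest. The log2 difference of S100A16 was 0.17 ± 0.09 (SE), and 0.08 without CDK4KO replicate 4.

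The distant pair showed smaller or less even differences. S100A11, a partner of ANXA1, was 209, 194, 221 and 202 CPM in CDK4WT and 186, 213, 233 and 302 CPM in CDK4KO. CDK4KO replicate 1 was the lowest and replicate 4 the highest of all 8 libraries, and the log2 difference of 0.18 ± 0.13 (SE) became 0.03 without replicate 4. S100A10, the member that does not bind calcium and holds ANXA2 at the plasma membrane, was 368, 342, 407 and 408 CPM in CDK4WT and 330, 389, 367 and 452 CPM in CDK4KO. Here too CDK4KO replicate 1 was the lowest and replicate 4 the highest library. The log2 difference of S100A10 was 0.01 ± 0.10 (SE), between -0.08 and 0.08 when 1 library was left out.

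Beyond S100A4, the members thus split: 4 had a positive difference (S100A13, S100A11, S100A16 and S100A10) and 3 a negative one (S100A3, S100A2 and S100A6). Counting S100A4, 5 of 8 were positive, where 51.2% of all genes were. The median log2 difference of the 8 was 0.09, and 0.01 without S100A4, beside 0.004 over all genes. Groups did not overlap for 2 of the 8, both higher in CDK4KO, where 7.68% of all genes did not overlap. The edgeR quasi-likelihood test called 0 of the 8 at an adjusted p of 0.05, and it called 8 of 13546 genes, 0.0591%. At an unadjusted p of 0.05 it took 2 of the 8, both higher in CDK4KO, where 6.64% of all genes were higher at that p. DESeq2 and limma voom with library quality weights each called 1 member, S100A4, where they called 2.33% and 2.37% of all genes. Since the genotype contrast chose the set, these counts only record the outcome of the fits over all genes, and nothing is read from them.

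S100A4 can be set against each other member inside the same library, which does not depend on the scaling between libraries. Since S100A4 was chosen for its higher count in CDK4KO, these shares and ratios restate that difference. They are descriptions and give it no separate support. S100A4 supplied 12, 13, 11.7 and 11% of the counts of the 8 genes in CDK4WT replicates 1 to 4 and 18.0, 14.9, 14 and 13.3% in CDK4KO replicates 1 to 4. The groups did not overlap, and the lowest share among CDK4KO libraries was that of replicate 4, where the other members were high. For each count of S100A6 there were 0.289 ± 0.013 counts of S100A4 in CDK4WT and 0.400 ± 0.056 in CDK4KO (SD, n = 4). For each count of S100A3 there were 29.6 ± 4.02 and 45.0 ± 4.72 counts of S100A4 (SD, n = 4). The ratio to S100A2 was 1.55 times as high in CDK4KO as in CDK4WT, and the ratio to S100A3 1.52 times. The corresponding values were 1.38 for S100A6, 1.33 for S100A10, 1.22 for S100A11, 1.20 for S100A16 and 1.14 for S100A13. The ratios to S100A2, S100A3 and S100A6 did not overlap between genotypes, and those to S100A10, S100A11, S100A13 and S100A16 did. The summed level of the 7 members other than S100A4 was 1889 to 1971 CPM in CDK4WT. In CDK4KO it was 1791, 1831 and 1872 CPM in replicates 1 to 3, all below CDK4WT, and 2479 CPM in replicate 4, above it.

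Compared per kilobase of exon, S100A6 was the most abundant member, at 933 ± 29.3 CPM per kb in CDK4WT and 914 ± 181 in CDK4KO (SD, n = 4). S100A11 followed in CDK4WT with 304 ± 16.6 CPM per kb, then S100A4 with 255 ± 16.6, S100A10 with 247 ± 20.8 and S100A16 with 224 ± 10.9. There S100A4 overlapped with S100A10, and S100A10 with S100A16, so those neighbours are not separated by their spread, while S100A11 lay above all 3. In CDK4KO, S100A4 (341 ± 42.6 CPM per kb) and S100A11 (344 ± 73.0) stood level, with overlapping libraries, and S100A4 lay above every CDK4KO library of S100A10 (214 to 293 CPM per kb) and, barely, of S100A16 (225 to 298 CPM per kb). S100A2 (17.7 ± 1.95 in CDK4WT, 15.9 ± 3.51 in CDK4KO), S100A13 (9.95 ± 0.412, 11.7 ± 1.20) and S100A3 (9.43 ± 1.72, 8.17 ± 1.0) were more than 10 times lower than S100A16. S100A13 and S100A3 overlapped in CDK4WT and did not in CDK4KO. With the longest transcript in place of all exons, S100A4 had 347 CPM per kb, S100A11 348 and S100A16 333 in CDK4WT, so this order depends on the length used.

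The spread of the members was wider among CDK4KO than among CDK4WT tumours, mostly through CDK4KO replicate 4. The coefficient of variation was larger in CDK4KO for 7 of 8 genes, all but S100A3, where 67.5% of all genes showed the same. For S100A6 it was 3.15% in CDK4WT and 19.8% in CDK4KO, and for S100A11 5.47% and 21.2%. Without CDK4KO replicate 4, a check chosen after seeing the data, the CDK4KO values were 4.19% for S100A6 and 11.2% for S100A11, and 6 of 8 members had the larger value in CDK4KO, beside 58.8% of all genes. S100A4 kept a value of 13.8% there, against 6.49% in CDK4WT. CDK4KO replicate 4 was the highest of the 4 CDK4KO libraries for 6 of 8 members, where 27.8% of all genes were. S100A4 and S100A3 were the exceptions, with CDK4KO replicate 1 highest. Replicate 1 was the lowest CDK4KO library for S100A2, S100A10, S100A11 and S100A16, so in that tumour S100A4 was at its highest while these 4 were at their lowest.

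**Figure D2:**
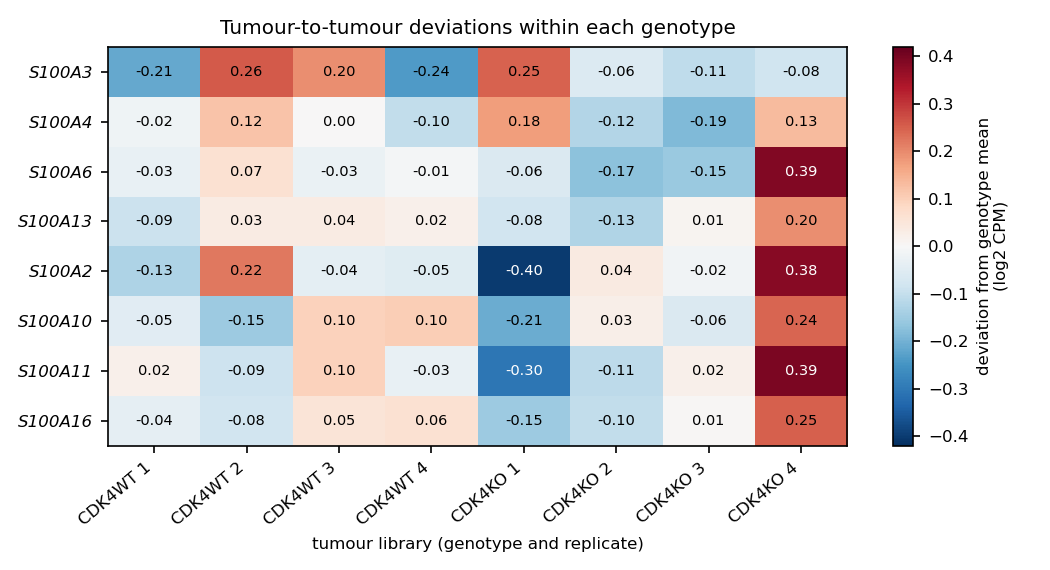
Deviation of each S100A gene (rows) in each library (columns) from the mean of its genotype, in log2 CPM, by colour and number. CDK4KO replicate 4 is above its genotype mean for every member except S100A3, and CDK4KO replicate 1 is above it only for S100A3 and S100A4.

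After the genotype means were taken out, the relation of S100A4 to each other member was tested over the 8 libraries by exact permutation within genotypes (576 arrangements, two-sided), with adjustment over the 7 relations. S100A3 gave Pearson r = 0.63 (exact permutation p = 0.0260, adjusted p = 0.182) and Spearman rho = 0.57 (p = 0.0625, adjusted p = 0.438). S100A6 gave r = 0.61 (exact permutation p = 0.191, adjusted p = 0.668) and rho = 0.55 (p = 0.274, adjusted p = 0.960). For S100A13 r was 0.30 and rho 0.43 (exact permutation p = 0.661 and 0.476), and for S100A2, S100A10, S100A11 and S100A16 r lay between -0.18 and 0.06. Of these relations, 0 passed adjustment. Each r is sensitive to single libraries: with the libraries farthest from the median of S100A4, CDK4KO replicates 1 and 3, left out, r became 0.52 for S100A3, 0.83 for S100A6, 0.90 for S100A2, 0.74 for S100A13, 0.62 for S100A11, 0.44 for S100A16 and -0.005 for S100A10. Without CDK4KO replicate 4 the relation of S100A4 with S100A3 was r = 0.80 (exact permutation, adjusted p = 0.0486). The 7 libraries left have fewer arrangements than 576, and the p before adjustment was the smallest these allow. With any other library left out the adjusted p for S100A3 was 0.178 to 0.924. Without CDK4KO replicate 4 r was -0.81 for S100A11 and -0.79 for both S100A10 and S100A16.

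The 6 members other than S100A3 and S100A4 varied together. Their 15 pairs had r from 0.55 to 0.94 (median 0.75) over the 8 libraries, the highest for S100A11 with S100A16 (r = 0.94, rho = 0.83, exact permutation p = 0.0104, adjusted p = 0.214 over all 28 pairs). This was looked at after the values had been seen, and 0 of the 28 pairs passed adjustment. Without CDK4KO replicate 4 the 15 pairs ranged from -0.83 to 0.76 (median 0.22), so the shared variation rests on that library. The 13 pairs with S100A3 or S100A4 ranged from -0.48 to 0.63.

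Among the 11439 genes with a mean log2 CPM of at least 2, the 5 whose tumour-to-tumour deviations were most like those of S100A4 over the 8 libraries were ITGAE (r = 0.991), MKNK1 (0.990), PSIP1 (0.986), HAUS5 (0.986) and ASB16-AS1 (0.973). These are descriptions of 8 points that share libraries. Each of the 5 overlapped between genotypes, with log2 differences of -0.02 ± 0.09, 0.14 ± 0.08, -0.07 ± 0.06, -0.05 ± 0.08 and 0.11 ± 0.12 (SE) in that order. S100A3 ranked 1282 and S100A6 1383 by the same measure.

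Along the chromosome, the measured genes next to S100A4 had smaller or negative differences. Between the outermost members, 2 further genes were measured. S100A5, which lies between S100A6 and S100A4, was low, at 2.83, 1.92, 2.04 and 1.63 CPM in CDK4WT and 2.91, 2.86, 2.01 and 1.36 CPM in CDK4KO, with a log2 difference of 0.12 ± 0.26 (SE). CCDST, a long non-coding RNA between S100A11 and S100A6, was 12.1, 9.26, 10.5 and 8.36 CPM in CDK4WT and 14, 13.2, 11.6 and 14.3 CPM in CDK4KO. Its log2 difference of 0.40 ± 0.12 (SE) was near that of S100A4, but 1 CDK4KO library fell within the CDK4WT range and the edgeR adjusted p was 0.224. Of the 10 nearest measured genes toward the centromere, beside S100A10, 9 had a negative difference, with a median of -0.09. In 2 of them the genotypes did not overlap, CGN (-0.49 ± 0.17) and TUFT1 (-0.23 ± 0.08), both lower in CDK4KO. Over all genes 7.68% did not overlap. CGN was low, at 1.23 to 2.30 CPM over the 8 libraries. Of the 10 on the other side, beside S100A13, 6 were positive, with a median of 0.03 and a range from -0.38 (NPR1) to 0.22 (SLC27A3). NPR1 was also low, at 1.40 to 3.52 CPM. edgeR called 0 of these 22 genes, as did DESeq2 and limma voom. At an unadjusted p of 0.05 edgeR took CCDST as higher and 3 of the genes beside S100A10 as lower. Over all genes it took 6.64% as higher and 6.33% as lower. Without CDK4KO replicates 1 and 4, where far more genes were called in all, edgeR called 1 of the 22. This was PSMB4, which encodes a proteasome subunit, with a lower level in CDK4KO.

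**Figure D3:**
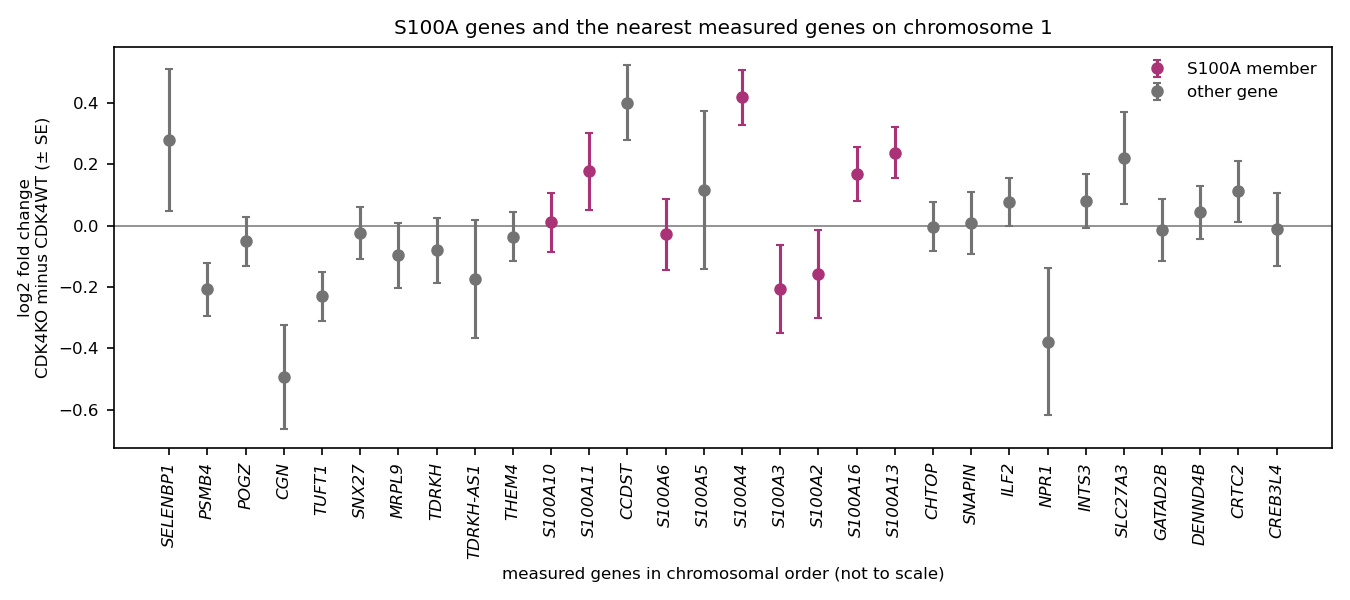
Log2 fold change, CDK4KO minus CDK4WT, with its SE (n = 4 per genotype), for the 8 S100A members and the measured genes between and beside them on chromosome 1, in chromosomal order but not to scale. S100A4 (0.42) stands above its neighbours S100A5 (0.12) and S100A3 (-0.21), and CCDST (0.40) has a positive difference of similar size. CGN (-0.49) and NPR1 (-0.38), both at low levels of 1.23 to 3.52 CPM, have negative ones.

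Of the proteins that S100A members work with, annexins bind membranes in response to calcium, several of them as S100 partners. Of 13 listed annexins 9 were measured, 3 with a positive and 6 with a negative difference, and the median was -0.03. ANXA2, the partner of S100A10, had 1265 ± 62.4 CPM in CDK4WT and 1246 ± 95.4 in CDK4KO (SD, n = 4), and a log2 difference of -0.02 ± 0.07 (SE). ANXA1, the partner of S100A11, had a log2 difference of -0.07 ± 0.11 (SE). ANXA8 was 1.37, 2.07, 2.30 and 1.25 CPM in CDK4WT and 0.615, 1.08, 0.559 and 0.584 CPM in CDK4KO. These low levels did not overlap, and the log2 difference was -1.28 ± 0.29 (SE), with an adjusted p of 0.118 in edgeR, 0.0182 in DESeq2 and 0.0443 in limma voom. ANXA8 has near-identical copies, so its count is uncertain.

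Other binding partners were measured for 17 of 21 listed genes, 11 with a positive and 6 with a negative difference (median 0.03). MYH9, the myosin heavy chain that S100A4 binds, had 1346 ± 68.5 CPM in CDK4WT and 1263 ± 167 in CDK4KO (SD, n = 4), a log2 difference of -0.09 ± 0.09 (SE). CACYBP, the calcyclin-binding protein that joins S100A6 to ubiquitin ligases, was 86.9, 84.7, 80.2 and 84.2 CPM in CDK4WT and 71.7, 65.5, 58.9 and 77.0 CPM in CDK4KO. Each CDK4KO library lay below each CDK4WT library, and the log2 difference was -0.30 ± 0.08 (SE), with an adjusted p of 0.168 in edgeR, 0.0346 in DESeq2 and 0.0221 in limma voom. AHNAK, the giant scaffold protein anchored by S100A10 and ANXA2, had 2731 ± 58.8 CPM in CDK4WT and 3217 ± 288 in CDK4KO (SD, n = 4), also without overlap. Its log2 difference was 0.24 ± 0.08 (SE), with an adjusted p of 0.236 in edgeR, 0.0421 in DESeq2 and 0.105 in limma voom. Without CDK4KO replicates 1 and 4, where far more genes were called in all, the AHNAK difference was 0.14 (edgeR adjusted p = 0.316). The CACYBP difference was -0.43 there and passed (edgeR adjusted p = 0.0121). SYT1, which joins S100A13 and FGF1 in their export complex, had 40.5 ± 6.20 CPM in CDK4WT and 57.0 ± 10.8 in CDK4KO (SD, n = 4) with overlapping groups. Its log2 difference was 0.50 ± 0.15 (SE), with an adjusted p of 0.224 in edgeR, 0.0487 in DESeq2 and 0.0545 in limma voom. Without CDK4KO replicate 1, where edgeR called 183 genes in all, the SYT1 difference was 0.61 and passed (adjusted p = 0.0380). With any other single library left out the edgeR adjusted p of SYT1 was 0.260 to 0.425. Without both CDK4KO replicates 1 and 4 the SYT1 difference was 0.67 (edgeR adjusted p = 0.0298).

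All 4 listed receptors of secreted S100 proteins were measured. TLR4 was 41.9, 42.8, 43.1 and 35.6 CPM in CDK4WT and 58.8, 54.2, 49.1 and 52.7 CPM in CDK4KO. The groups did not overlap and the log2 difference was 0.39 ± 0.08 (SE), with an adjusted p of 0.0997 in edgeR, 0.00191 in DESeq2 and 0.0286 in limma voom. AGER, the receptor for advanced glycation end products, was 4.67, 4.25, 4.20 and 4.23 CPM in CDK4WT and 4.79, 4.99, 5.03 and 6.19 CPM in CDK4KO, again without overlap. Its log2 difference was 0.28 ± 0.12 (SE), with an edgeR adjusted p of 0.383, and it was 0.19 without CDK4KO replicate 4. ALCAM (-0.14 ± 0.09) and BSG (0.04 ± 0.06) overlapped. Of all genes measured 7.68% did not overlap between genotypes.

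**Figure D4:**
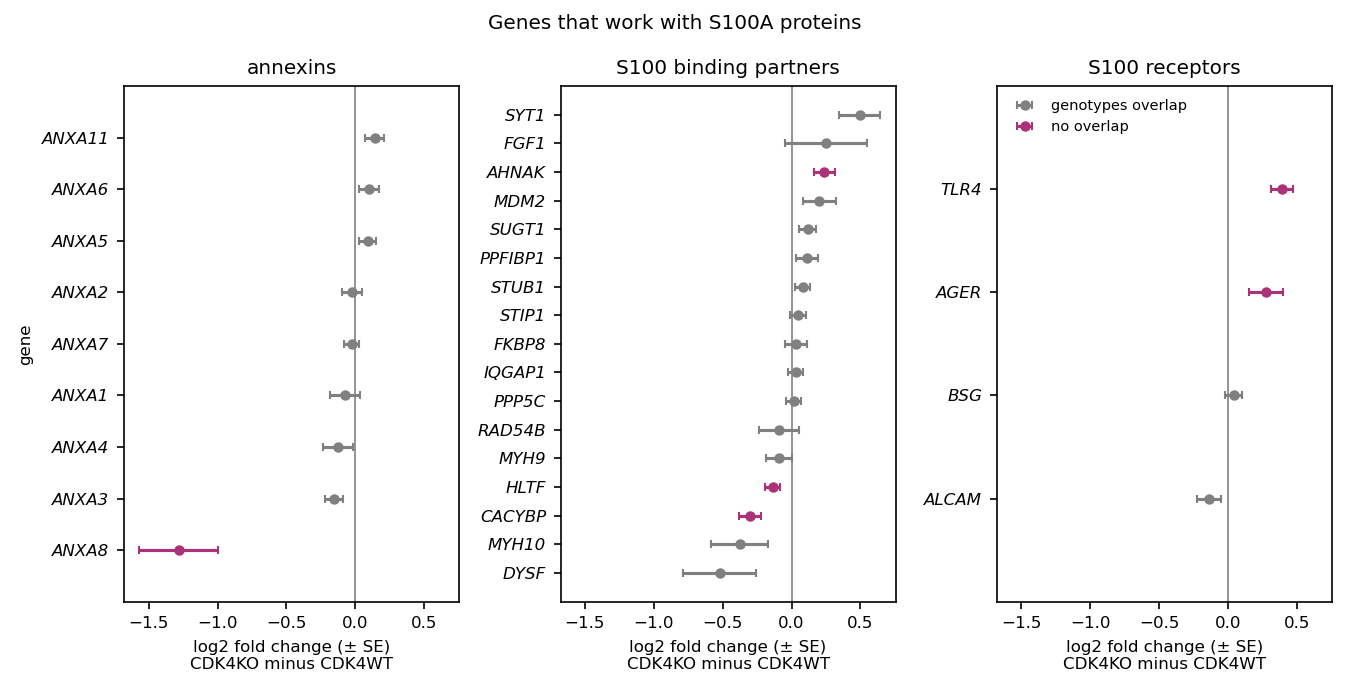
Log2 fold change, CDK4KO minus CDK4WT, with its SE (n = 4 per genotype), for 9 annexins, 17 S100 binding partners and 4 S100 receptors, each sorted by value. Colour marks genes whose 4 CDK4KO libraries all lie above or all below the 4 CDK4WT libraries: ANXA8, AHNAK, HLTF, CACYBP, TLR4 and AGER. Of all genes measured 7.68% do so.

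Other EF-hand proteins, which share the calcium-binding fold of the S100 family, were measured for 34 of 38 listed genes, 19 with a positive and 15 with a negative difference (median 0.02). The largest difference among the 4 with the smallest p was that of LCP1, an actin-bundling protein, at -0.41 ± 0.14 (SE). SDF4 of the secretory pathway (0.16 ± 0.06, SE) and GCA (-0.26 ± 0.09, SE) did not overlap between genotypes, nor did 7.68% of all genes. S100A4 is known as a target of Wnt and beta-catenin signalling, for which 13 of 18 listed genes were measured, 5 positive and 8 negative (median -0.05). APC, a part of the complex that degrades beta-catenin, had a log2 difference of 0.28 ± 0.11 (SE), with overlapping groups. Its adjusted p was 0.330 in edgeR, 0.257 in DESeq2 and 0.0414 in limma voom. Without CDK4KO replicate 1, where edgeR called 183 genes in all, the APC difference was 0.38 and passed (adjusted p = 0.0373). With any other single library left out the edgeR adjusted p of APC was 0.370 to 0.603. Without both CDK4KO replicates 1 and 4 the APC difference was 0.45 (edgeR adjusted p = 0.0121). AXIN2, a direct target of the pathway, had a log2 difference of 0.11 ± 0.13 (SE). Over these lists of 78 measured genes edgeR called 0 with all libraries, DESeq2 called 5 and limma voom 4, beside 2.33% and 2.37% of all genes. At an unadjusted p of 0.05 edgeR took 7 higher and 7 lower genes of the lists, beside 6.64% and 6.33% of all genes. Of the S100 genes that are not members only S100A5 was measured among 12 listed, and S100A8, S100A9 and S100A14 were not among the genes measured. Of 17 listed genes of the cornified envelope and the S100-fused family, which lie between S100A11 and S100A6, 0 were measured.

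Fibroblasts and macrophages are rich in S100A4, so markers of other cell types are given beside its values. Summed levels of 7 measured fibroblast markers of 12 listed were 798 to 1220 CPM in CDK4WT and 696 to 1207 CPM in CDK4KO (exact permutation p = 0.857, two-sided, 70 arrangements), with the lowest sum in CDK4KO replicate 4, where S100A4 was at 381 CPM. For 6 of 14 macrophage and leukocyte markers the sums were 17.5 to 30 and 21.7 to 23.5 CPM (exact permutation p = 0.771), for 7 of 10 endothelial markers 110 to 125 and 89.0 to 116 CPM (exact permutation p = 0.429), and for 5 of 10 keratinocyte markers 50 to 67.3 and 44.9 to 62.4 CPM (exact permutation p = 0.171). Adipose and muscle markers, 5 of 12, summed to 18.0 to 38.6 CPM in CDK4WT and 8.59 to 14.5 CPM in CDK4KO without overlap. For these the exact permutation p was 0.0286, the smallest that 4 against 4 can give, and 0.200 after adjustment over 7 lists. The fibroblast list includes collagens that tumour cells can also make, and defining markers such as CD68, CDH5 and ADIPOQ were not among the genes measured. In CDK4WT the fibroblast sum averaged 1030 CPM, with COL1A1 at 588, COL3A1 at 209 and COL1A2 at 197 CPM, so it is mostly a collagen sum. Single genes weigh heavily in other sums too: TIE1 averaged 87.1 CPM in CDK4WT among the endothelial markers, and CSF1R 13.5 CPM among the macrophage and leukocyte markers. Among the adipose and muscle markers, ACTA1 averaged 12.6 CPM in CDK4WT, where the sum averaged 24.2 CPM. Counted by gene, the log2 difference was positive for 6 of 7 endothelial and 4 of 6 macrophage and leukocyte markers. It was positive for 3 of 7 fibroblast, 1 of 5 keratinocyte and 1 of 5 adipose and muscle markers. The part of other cell types in the S100A values was not tested.

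The settings plot collects the fold changes of the members under the other tests, scalings and filters and with libraries left out. S100A4 (0.26 to 0.48), S100A13 (0.17 to 0.28), S100A11 (0.03 to 0.27) and S100A16 (0.08 to 0.22) were positive, and S100A2 (-0.30 to -0.04) and S100A3 (-0.31 to -0.11) negative, under every setting in which they were computed. S100A6 (-0.21 to 0.03) and S100A10 (-0.08 to 0.08) changed sign between settings.

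**Figure D5:**
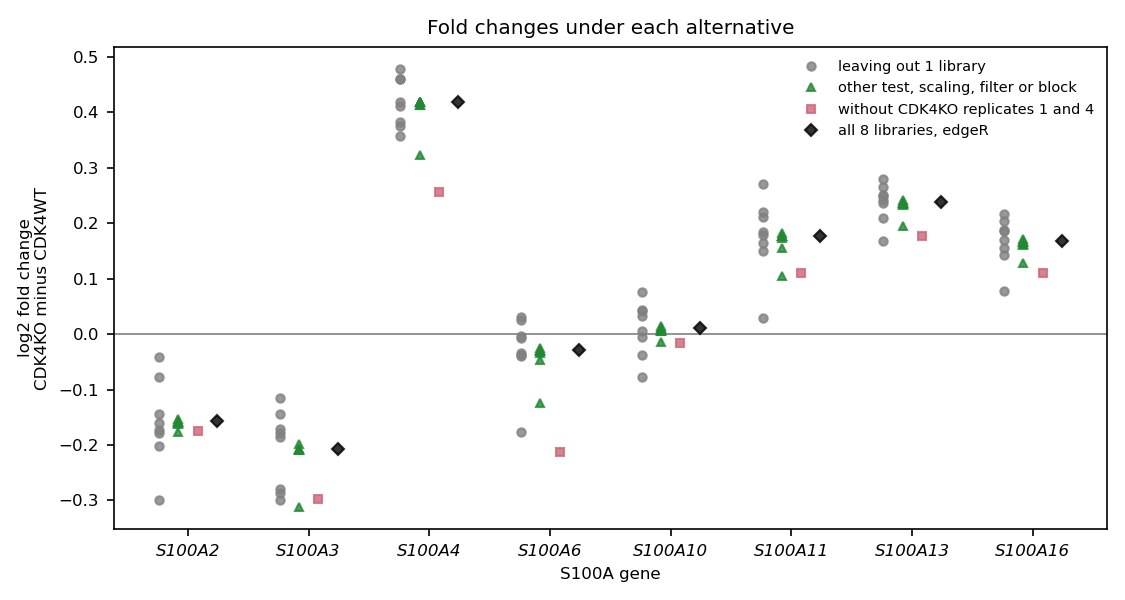
Log2 fold change, CDK4KO minus CDK4WT, of each S100A gene with all 8 libraries in edgeR (diamonds), with 1 library left out (circles), with another test, scaling, filter or replicate block (triangles) and without CDK4KO replicates 1 and 4 (squares). The S100A4 values, 0.26 to 0.48, lie above 0 throughout, while those of S100A6 and S100A10 fall on both sides of 0.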

How the data were processed

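RNA from the tumours was extracted with Trizol and prepared as mRNA libraries according to the labels' protocols. The authors deposited raw counts, whole reads per Ensembl gene, in 1 table. The submitters' processing notes name cutadapt, STAR 2.7.11a, featureCounts 2.0.4 and the hg38 build. Which annotation release and strand setting were used, and what was done with mouse reads, is not given in the sources used here. The CDK4KO columns were assigned to replicates 1 to 4 by their library numbers. Symbols were found for 13524 of 13546 genes and GENCODE 29 coordinates for 13455. The expression filter of edgeR removed 0 genes.

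The main test was the quasi-likelihood test of edgeR 4.0.16 (R 4.3.3, TMM scaling, Benjamini-Hochberg over all genes, threshold 0.05). It was checked on simulated data whose seeded changes were larger than the difference of any member. Differences as small as those of the members were not covered by that check. The common coefficient of biological variation was 11.7%. Standard errors are those implied by the F statistic, and the prior count of log2 CPM was 2. DESeq2 1.42.0 and limma 3.58.1 (voom with library quality weights) were alternatives, as were other scalings and filters, a replicate block and libraries left out. Named genes were the members, the genes between them, up to 4 genes of each list with the smallest p, and the 5 most like S100A4. ANXA1, ANXA2, MYH9 and AXIN2 were added for their role, and single neighbours (CGN, TUFT1, NPR1, SLC27A3, PSMB4) were picked after their values were seen. The members and lists were chosen with earlier results of these data known. Replicates of each genotype differed beyond counting noise. A result for 1 further gene is not reported here.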

Additional observations from a re-analysis of the deposited data

Results flagged for a closer look

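Each member and S100A5 were checked in each genotype for 1 library far from the other 3 (Dixon's criterion, 4 libraries), 18 groups in all. Chance alone flags about 1 in 20 such groups, and 3 were found. S100A6 in CDK4KO replicate 4, at 1148 CPM, lay above the other CDK4KO libraries by 0.831 of the range of the group. S100A3 in CDK4KO replicate 1, at 9.23 CPM, lay above the others by 0.872 of the range. S100A13 in CDK4WT replicate 1, at 20.7 CPM, lay below the others by 0.876 of the range, although the 4 values span less than 2 CPM.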

How the results depend on the processing

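The 8 genes that edgeR called became 14 with library size only, 18 with a filter of at least 10 CPM in 4 libraries, 315 with DESeq2, 321 with limma voom and 447 without CDK4KO replicates 1 and 4, a setting chosen after seeing the data. Leaving out 1 library gave 0 to 183, with 183 without CDK4KO replicate 1, 17 without CDK4KO replicate 4 and 0 or 1 without any other. Called members were 1 with DESeq2 and 1 with limma voom. Called genes of the related lists were 5, 4 and 3 with DESeq2, limma voom and the 6 remaining libraries, and 0 to 2 when 1 library was left out. Called neighbours were 1 with the 6 remaining libraries. The S100A4 difference was 0.26 there, and S100A3 was not tested under the CPM filter.

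The labels state no pairing of the replicate numbers. Deviations of same-numbered libraries had correlations of -0.03, -0.01, 0.003 and 0.19 for replicates 1 to 4. Only for CDK4WT replicate 4 was the same-numbered CDK4KO library the best match. These values cannot show whether the numbers carry a pairing. With the replicate block 13 genes were called, and the S100A4 difference was 0.41.

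Leaving out 1 library moved r with S100A4 from -0.40 to 0.92 for S100A2, 0.47 to 0.80 for S100A3, 0.52 to 0.87 for S100A6, -0.79 to 0.28 for S100A10, -0.81 to 0.64 for S100A11, -0.13 to 0.66 for S100A13 and -0.79 to 0.47 for S100A16. The cause was not tested. Reads per library were 217 to 361 for S100A3, the lowest, 540 to 1092 for S100A2, 630 to 916 for S100A13 and 7012 to 11762 for S100A4. Relative counting noise is thus larger for the low members than for S100A4. Its part in their spread and in the narrow gap of S100A13 between genotypes was not tested.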
